A study of Homo sapiens with 12 samples.

Results

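The 8 genes described here encode the growth factors of the EGF family that were looked up by symbol: EGF, TGFA (transforming growth factor alpha), AREG (amphiregulin), HBEGF (heparin-binding EGF-like growth factor), BTC (betacellulin), EREG (epiregulin), EPGN (epigen) and NRG1 (neuregulin 1). All 8 were found by Ensembl ID among the 61044 rows of the count table. The list was drawn up with earlier results of these data known. RNA had been sequenced 48 hours into the treatment of SCC-15 cells, which are an established human line of oral squamous cell carcinoma. All cells carried a short hairpin RNA (shRNA): a negative-control hairpin in the group NC, or 1 of 3 hairpins against FMOD in the groups shRNA1, shRNA2 and shRNA3. FMOD encodes fibromodulin, a small proteoglycan of the extracellular matrix, and the title of the study places it upstream of the EGF receptor. Each of the 4 groups had 3 libraries (n = 3 throughout). The labels do not say whether the libraries of a group came from separate cultures, so p-values measure the spread between these libraries, which may be technical. How the hairpins were delivered and whether clones were selected is not given in the sources used here.

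Ligands of the EGF family are made as membrane-anchored precursors, and metalloproteases such as ADAM17 and ADAM10 cut them loose. EGF, TGFA, AREG and EPGN bind the receptor EGFR, HBEGF, BTC and EREG bind EGFR and ERBB4, and NRG1 binds ERBB3 and ERBB4. Squamous epithelial cells produce several of these ligands themselves and respond to them, an autocrine loop in which receptor signalling through the kinase ERK in turn raises the transcription of some of the ligand genes.

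Library totals lay between 17286934 and 19567192 counts. FMOD itself was near the limit of detection, with 2, 2 and 3 counts in NC and 0 in each of the 9 shRNA libraries, too few to check the labels. The NC libraries stood far from all others: their correlation with shRNA libraries, on log2 values across genes, was between 0.773 and 0.795, against at least 0.961 between shRNA1 and shRNA2. Whether the NC cells and the shRNA cells were matched in other respects is not given in the sources used here, so any other difference between them cannot be told apart from the hairpins in the comparisons with NC. Libraries 1 and 2 of shRNA3 also stood apart from library 3 of that group, with a correlation of 0.987 to each other and of 0.908 to 0.911 to library 3. The ligands are therefore given library by library, and with libraries 1 and 2 of shRNA3 left out where that moves a value. Of the genes of other lists that are named below as changed with all 3 hairpins, only ADAM12 and VWF lost their shRNA3 calls without these libraries (log2 0.75 and -1.22). All 12 markers of squamous epithelium looked at were above 3 counts in every library. Their summed level lay between 2980 and 3220 CPM (counts scaled to a common library size) in NC and between 2410 and 3540 CPM in the shRNA libraries, and the median of their log2 changes was -0.07, -0.08 and 0.71 for shRNA1, shRNA2 and shRNA3, the last being 0.03 without its libraries 1 and 2. Of the 12, 4 rose with all 3 hairpins (KRT6A, KRT14, KRT17 and DSP) and 4 fell (KRT5, CDH1, PKP1 and CDH3), against 16.0% and 19.7% of all tested genes. Of 9 fibroblast markers 4 were tested, of which 3 fell with all 3 hairpins, beside 19.7% of all tested genes. COL1A2 and LUM, 2 of these 3, passed the filter on low counts through NC alone, so they had to differ to be tested. COL1A1 fell with shRNA1 (log2 -1.27), with differences of 0.1 and 0.66 for the others. The summed level of the 9 markers was 56.9 to 59.9 CPM in NC, 15.6 to 21.7 CPM with shRNA1, 44.3 to 48.2 CPM with shRNA2 and 33.1 to 86.7 CPM with shRNA3. The summed leukocyte markers (6 genes, most of it CD68) lay between 58.8 and 76.3 CPM in NC and between 44.5 and 236 CPM in the shRNA libraries, while PTPRC, which defines leukocytes, was at 0 in NC and at most at 0.436 CPM elsewhere. Of the 6 leukocyte markers 2 were tested. CD14 fell with all 3 hairpins (log2 -2.36, -1.17 and -2.4), beside 19.7% of all tested genes. CD68 went the other way: it rose with shRNA3 (log2 1.6, and 0.8 without its libraries 1 and 2), with differences of 0.26 and 0.38 for shRNA1 and shRNA2. Of 5 endothelial markers 3 were tested: PECAM1 rose and CDH5 and VWF fell with all 3 hairpins, beside 16.0% and 19.7% of all tested genes. PECAM1 passed the filter through the shRNA groups alone and VWF through NC alone. The summed melanocyte markers (4 genes) lay between 6.44 and 8.47 CPM in NC and between 1.59 and 9.33 CPM elsewhere. The part of these differences in the ligand results was not tested, and in RNA from bulk cells a change in the number of cells of a type and a change in RNA per cell cannot be told apart.

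Of the 8 ligand genes, 4 lie within a stretch of the long arm of chromosome 4. In GENCODE release 29 on GRCh38, EPGN (ENSG00000182585) spans 74308473 to 74315307 and EREG (ENSG00000124882) spans 74365143 to 74388751, both on the plus strand. AREG (ENSG00000109321, 74445134 to 74455009) is on the plus strand too, and BTC (ENSG00000174808, 74744759 to 74794686) is on the minus strand. The gaps between them are 49.8 kb from EPGN to EREG, 56.4 kb from EREG to AREG and 290 kb from AREG to BTC. None of these 4 genes overlaps another annotated gene. Because these close neighbours moved in opposite directions, the 250 bases before their start sites are shown, from RefSeq on GRCh38.p14. The sequences run 5′ to 3′ on the strand of the gene and end just before the start site, and capitals mark matches to the motifs named after them.
EPGN, chr4:74308220-74308469, plus strand:
EPGN: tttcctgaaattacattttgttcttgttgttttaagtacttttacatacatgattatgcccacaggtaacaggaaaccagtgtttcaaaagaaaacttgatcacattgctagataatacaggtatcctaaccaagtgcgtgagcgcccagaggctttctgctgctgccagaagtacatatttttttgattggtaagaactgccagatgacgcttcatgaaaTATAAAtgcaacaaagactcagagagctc
EREG, chr4:74364895-74365144, plus strand:
EREG: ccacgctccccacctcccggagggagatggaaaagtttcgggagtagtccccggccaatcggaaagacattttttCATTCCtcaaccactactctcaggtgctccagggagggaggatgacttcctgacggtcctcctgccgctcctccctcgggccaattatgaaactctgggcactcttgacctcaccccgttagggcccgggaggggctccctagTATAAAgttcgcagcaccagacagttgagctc
AREG, chr4:74444886-74445135, plus strand:
AREG: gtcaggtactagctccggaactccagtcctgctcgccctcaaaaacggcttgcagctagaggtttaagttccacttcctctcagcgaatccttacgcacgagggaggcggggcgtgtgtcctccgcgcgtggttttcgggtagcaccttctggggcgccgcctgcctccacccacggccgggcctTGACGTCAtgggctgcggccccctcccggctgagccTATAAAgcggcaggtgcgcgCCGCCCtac
BTC, chr4:74794524-74794773, minus strand:
BTC: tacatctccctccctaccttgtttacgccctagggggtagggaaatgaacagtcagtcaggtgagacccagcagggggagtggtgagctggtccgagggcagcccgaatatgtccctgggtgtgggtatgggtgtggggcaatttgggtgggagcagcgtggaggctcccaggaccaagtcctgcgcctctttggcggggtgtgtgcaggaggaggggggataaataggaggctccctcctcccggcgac

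The windows were searched on both strands for the TATA element (TATAAA), the cyclic AMP response element CRE (TGACGTCA), the AP-1 site (TGANTCA), the Sp1 box (GGGCGG) and the TEAD site (GGAATG). The first of these stood 29 to 24 bases before the start of EPGN and of AREG and 32 to 27 bases before that of EREG, and 10.7% of all 35116 RefSeq promoter windows of the same length hold one. AREG had in addition a full CRE at 65 to 58 bases before its start, held by 1.65% of windows, and an Sp1 box read on the opposite strand at 9 to 4 bases, held by 42.6%. EREG had a TEAD site on the opposite strand at 175 to 170 bases, held by 11.9% of windows. The BTC window held none of these letters. Its GC content was 62.0%, and that of EPGN was 38.0%, of EREG 58.0% and of AREG 65.2%, against a median of 58.0% over all windows. Of the other ligands, EGF had an AP-1 site at 17 to 11 bases, held by 6.57% of windows, with a TEAD site overlapping it at 12 to 7 bases. HBEGF had 5 Sp1 boxes, and TGFA, which has a pair of RefSeq start sites, had 3 before one of them. In all, 7 of the 8 ligands had a window in the table. A match is a description of the letters only.

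EREG was the ligand that fell furthest with each hairpin. Its counts in NC were 167, 245 and 264, or 8.43, 12.1 and 13.4 CPM, where CPM is scaled by the TMM factors of the libraries. It had 9, 7 and 9 counts with shRNA1, 1, 6 and 3 with shRNA2, and 1, 1 and 11 with shRNA3. No shRNA library reached the lowest NC library, and in shRNA3 the library with 11 counts was again library 3. EREG passed the filter on low counts through NC alone, so it had to differ to be tested. EREG, an epithelial autocrine factor, fell by 4.74 on the log2 scale with shRNA1 (standard error (SE) 0.59, adjusted p = 4.66e-05, edgeR's quasi-likelihood F test with Benjamini-Hochberg adjustment over 17532 genes, as in all adjusted p-values here). This is 26.7-fold lower. With shRNA2 it was 57.8-fold lower (log2 -5.85, SE 0.65, edgeR adjusted p = 2.09e-05) and with shRNA3 42.9-fold lower (log2 -5.42, SE 0.63, edgeR adjusted p = 3.1e-05). The 95% confidence intervals of the 3 log2 changes overlapped, from -6.03 to -3.45, -7.27 to -4.44 and -6.8 to -4.05. The changes rest on at most 25 counts in a shRNA group. The shRNA3 value moved with library 3: it was -7.14 without that library and -4.33 without libraries 1 and 2, and passed the edgeR test both times.

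EPGN went the other way. This short ligand of EGFR had 0 counts in all 3 NC libraries, and a floor of 3 counts in each, or 0.15 CPM, was set. The exact 95% upper limits lay somewhat higher, at 0.201 to 0.207 CPM of the raw totals, where the floor is 0.164 to 0.168 CPM. The shRNA1 libraries had 19.7, 21.4 and 28.2 CPM, the shRNA2 libraries 13.8, 15.8 and 13.5 CPM, and the shRNA3 libraries 4.08, 5.68 and 17.6 CPM. Every shRNA library was thus above every NC library, and within shRNA3 it was library 3 that lay near the other hairpins. Against the floor, the mean of EPGN was at least 154-fold higher with shRNA1, at least 95.6-fold higher with shRNA2 and at least 60.7-fold higher with shRNA3 (edgeR adjusted p = 1.11e-05, 1.74e-05 and 2.95e-05). Against the lowest library of shRNA3 the bound was 27.1-fold. EPGN passed the filter on low counts through the shRNA groups alone, so it had to differ to be tested.

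AREG was the most abundant ligand of the chromosome 4 group. NC held 33.7, 33.1 and 31.1 CPM, shRNA1 138, 139 and 150 CPM, and shRNA2 52.6, 55.1 and 49.0 CPM. In shRNA3, libraries 1 and 2 held 324 and 312 CPM and library 3 held 73.0 CPM. All 9 shRNA libraries lay above all NC libraries, but only shRNA1 and shRNA3 passed the test. AREG rose 4.36-fold with shRNA1 (log2 2.12, SE 0.41, edgeR adjusted p = 0.00101) and 7.23-fold with shRNA3 (log2 2.85, SE 0.42, edgeR adjusted p = 0.000177). For shRNA2 the log2 difference was 0.68, with a 95% interval of -0.19 to 1.55 and an edgeR adjusted p of 0.172. In a fit of the NC and shRNA2 libraries alone, which leaves the scattered shRNA3 libraries out of the dispersion estimate, edgeR's adjusted p for shRNA2 was 5.02e-07. In that fit 79.2% of all genes passed. With shRNA3 libraries 1 and 2 left out, the log2 change with shRNA3 was 1.19.

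BTC, which can signal through EGFR and ERBB4, was scarce. It had 16, 21 and 14 counts in NC, 3, 3 and 10 with shRNA1, 8, 6 and 5 with shRNA2, and 3, 2 and 8 with shRNA3. No shRNA library reached an NC library. The gene passed the filter on low counts through NC alone, so it had to differ to be tested. BTC fell with shRNA1 (log2 -1.64, SE 0.55, edgeR adjusted p = 0.0232) and shRNA3 (log2 -1.66, SE 0.56, edgeR adjusted p = 0.0262), and had a log2 difference of -1.22 with shRNA2 (95% interval -2.4 to -0.05, edgeR adjusted p = 0.075). At these counts the calls were fragile: without a filter on low counts the edgeR adjusted p was 0.0712 for shRNA1 and 0.0757 for shRNA3. Leaving out NC library 1 or 2 ended both calls, as did leaving out library 1 or 2 of the shRNA concerned, with edgeR adjusted p from 0.0543 to 0.0999. Without shRNA3 libraries 1 and 2 together, the shRNA3 value was -1.06 (edgeR adjusted p = 0.27).

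**Figure D1:**
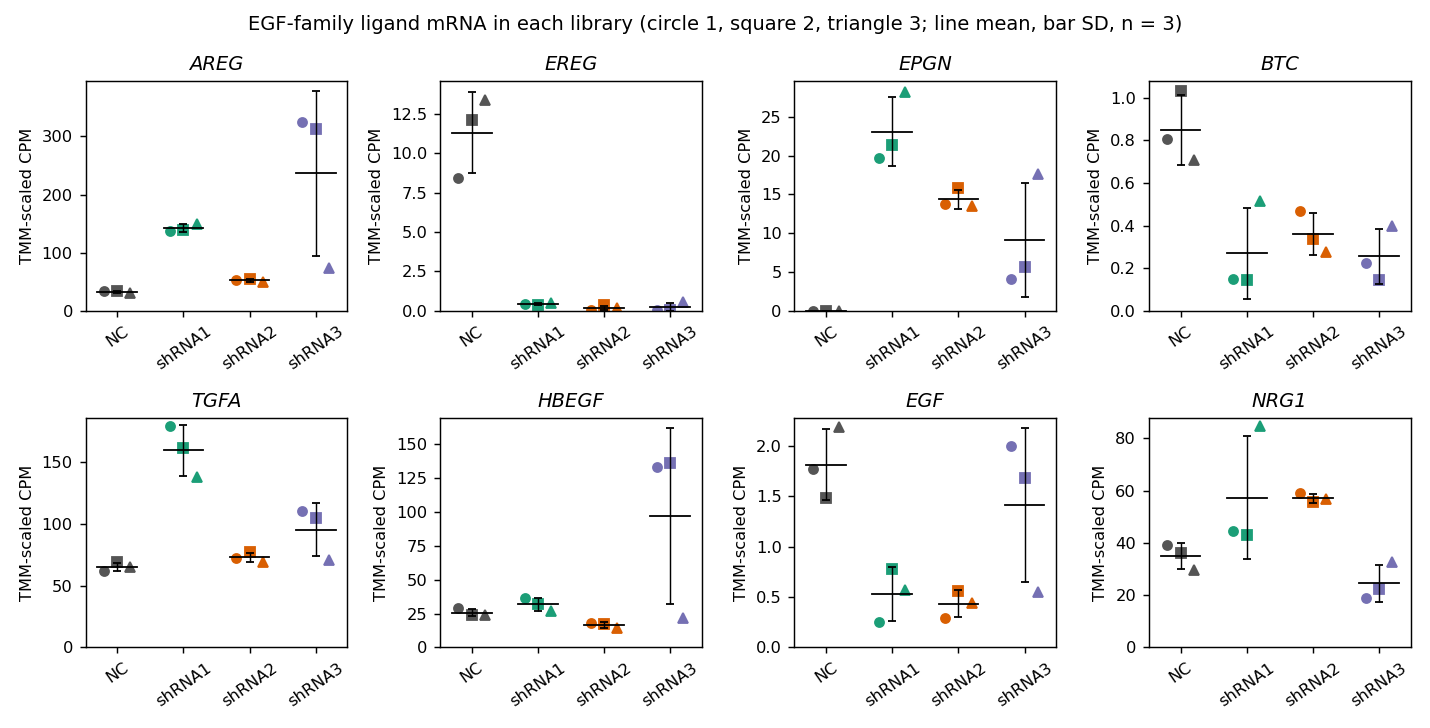
TMM-scaled CPM of the 8 ligand genes in the 12 libraries, 1 panel a gene with its own linear axis from 0; symbols mark library 1, 2 and 3 of a group, lines the mean and bars the SD (n = 3). EPGN lies at 0 in NC and at 4.08 to 28.2 CPM elsewhere, EREG shows the opposite order, and in shRNA3 libraries 1 and 2 lie apart from library 3 for AREG, HBEGF, TGFA, EGF and EPGN.

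The region around the 4 genes was read out to 500 kb on either side, which takes in 30 annotated genes. Of these, 9 passed the filter on low counts: the 4 ligands and 5 others. CXCL1, a neutrophil-attracting chemokine, had 6.56 to 9.6 CPM in NC and 0 counts in all shRNA libraries, so that it was at least 51.0-fold lower with shRNA1, 44.8-fold with shRNA2 and 38.8-fold with shRNA3. PARM1, a mucin-like membrane protein beyond BTC, had 16.8 to 20.1 CPM in NC and 0 counts in all shRNA libraries, at least 125-fold lower with shRNA1, 110-fold with shRNA2 and 95-fold with shRNA3. MTHFD2L, a mitochondrial enzyme of folate metabolism that ends just before EPGN, rose by 1.16, 1.07 and 1.38 on the log2 scale (edgeR adjusted p = 0.0015, 0.00282 and 0.000533). MTHFD2L and PARM1 overlap antisense transcripts, and whether counting used strand is not given in the sources used here. The 2 remaining genes are the chemokines CXCL2 and CXCL3, which share much of their sequence with each other and with CXCL1, so that their reads may be split between them. CXCL2 rose with shRNA1 (log2 2.17, edgeR adjusted p = 0.019), with log2 differences of -0.33 and 0.33 for the others. CXCL3 fell with shRNA2 and shRNA3 (log2 -1.5 and -1.4), the latter being -0.81 without shRNA3 libraries 1 and 2 (edgeR adjusted p = 0.249). Of the 9 tested genes, 2 rose with all 3 hairpins (MTHFD2L and EPGN) and 3 fell (CXCL1, EREG and PARM1), against 16.0% and 19.7% of all tested genes. CXCL1, EREG, PARM1 and BTC passed the filter on low counts through NC alone, and EPGN through the shRNA groups alone, so these had to differ to be tested and the count says nothing of the region.

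**Figure D2:**
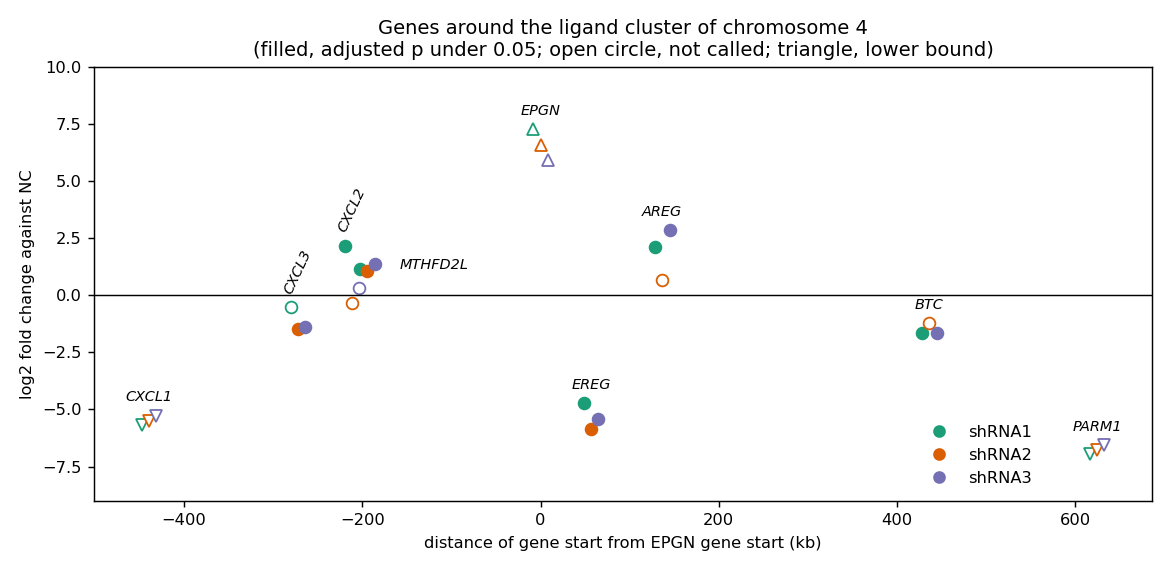
Log2 fold change against NC of the 9 tested genes within 500 kb of the chromosome 4 ligands, by the distance of the gene start from that of EPGN in kb. Filled circles passed the edgeR test, open circles did not, and triangles are lower bounds for genes at 0 to 3 counts in 1 of the groups; EPGN lies at least 5.92 above 0 and EREG, 56.7 kb away, between -5.85 and -4.74.

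The other EGFR ligands lie elsewhere. TGFA (ENSG00000163235, chromosome 2, 70447280 to 70554193 on the minus strand, with the intronic transcript TGFA-IT1 inside it) encodes a ligand that keratinocytes and carcinoma cells use on themselves. It had 62.2, 68.7 and 64.8 CPM in NC, 179, 161 and 138 CPM with shRNA1, 72.5, 76.9 and 69.2 CPM with shRNA2, and 110, 105 and 70.5 CPM with shRNA3. The libraries of every shRNA group were above the highest NC library, 68.7 CPM, although the lowest of shRNA2 and of shRNA3 exceeded it only narrowly. TGFA rose 2.44-fold with shRNA1 (log2 1.29, SE 0.17, edgeR adjusted p = 7.34e-05). The difference with shRNA2 was 0.16 on the log2 scale (95% interval -0.21 to 0.53, edgeR adjusted p = 0.449). With shRNA3 TGFA rose by 0.54 (SE 0.17, edgeR adjusted p = 0.0173), a call that did not last: the log2 change was 0.14 (edgeR adjusted p = 0.414) without shRNA3 libraries 1 and 2. Scaled by library totals without TMM factors it was 0.17 (edgeR adjusted p = 0.285), and without NC library 1 or 3 the edgeR adjusted p was 0.0605 or 0.0524.

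HBEGF (ENSG00000113070, chromosome 5, 140332843 to 140346631 on the minus strand, no overlapping gene) encodes a heparin-binding ligand that is also an early response gene of many stress and growth signals. It had 29, 24.1 and 24.0 CPM in NC, 36.6, 32.2 and 26.9 CPM with shRNA1, and 17.7, 17.6 and 14.2 CPM with shRNA2. In shRNA3, libraries 1 and 2 had 133 and 136 CPM and library 3 had 21.8 CPM, below every NC library. HBEGF rose 3.76-fold with shRNA3 (log2 1.91, SE 0.49, edgeR adjusted p = 0.00667), and this rested on libraries 1 and 2: without them the log2 difference was -0.21 (edgeR adjusted p = 0.39). The differences with shRNA1 (log2 0.31, edgeR adjusted p = 0.602) and shRNA2 (log2 -0.64, 95% interval -1.7 to 0.43, edgeR adjusted p = 0.293) did not pass. All 3 shRNA2 libraries lay below NC, and a fit of these 6 libraries alone gave a log2 change of -0.63 with an edgeR adjusted p of 6.87e-05. In that fit 79.2% of all genes passed.

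EGF (ENSG00000138798, chromosome 4, 109912884 to 110012266 on the plus strand), the founding ligand of the family, lies far from the other ligands of that chromosome and was rare. It had 35, 30 and 43 counts in NC, 5, 16 and 11 with shRNA1, 5, 10 and 8 with shRNA2, and 27, 23 and 11 with shRNA3. The shRNA1 and shRNA2 libraries were all below NC, while shRNA3 libraries 1 and 2 reached into the NC range in CPM (2.0 and 1.68, against 1.48 to 2.18). EGF fell 3.37-fold with shRNA1 (log2 -1.75, SE 0.53, edgeR adjusted p = 0.0147) and 4.12-fold with shRNA2 (log2 -2.04, SE 0.55, edgeR adjusted p = 0.00828). The shRNA1 call ended without NC library 3 (edgeR adjusted p = 0.0506) or shRNA1 library 1 (0.0578). With shRNA3 the log2 difference was -0.38 (95% interval -1.49 to 0.73, edgeR adjusted p = 0.547), and without libraries 1 and 2 it was -1.69 (edgeR adjusted p = 0.0409).

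NRG1 (ENSG00000157168), the only ligand here that does not bind EGFR, has the longest gene of the 8, with small intronic transcripts inside it. It had 39.1, 36.1 and 29.5 CPM in NC, 44.4, 43.0 and 84.5 CPM with shRNA1, 58.9, 55.6 and 56.6 CPM with shRNA2, and 18.8, 22.4 and 32.5 CPM with shRNA3. All shRNA1 and shRNA2 libraries were above NC, and library 3 of shRNA1 was far above its partners. On the log2 scale NRG1 rose by 0.72 with shRNA1 (SE 0.27, edgeR adjusted p = 0.0411) and by 0.71 with shRNA2 (SE 0.27, edgeR adjusted p = 0.0457), both close to the threshold. Without shRNA1 library 3 the shRNA1 value was 0.33 (edgeR adjusted p = 0.226). With library totals in place of TMM scaling the values were 0.63 and 0.57 (edgeR adjusted p = 0.13 and 0.171), and leaving out NC library 1, 2 or 3 ended both calls (edgeR adjusted p from 0.0614 to 0.15). The shRNA1 call also ended without shRNA2 library 1 or 2, and the shRNA2 call without any of the shRNA2 libraries. With shRNA3 the log2 difference was -0.5 (95% interval -1.1 to 0.1, edgeR adjusted p = 0.141), with library 3 inside the NC range, and -0.07 without libraries 1 and 2 (edgeR adjusted p = 0.864). Without library 3 it was -0.76 (edgeR adjusted p = 0.0211).

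**Figure D3:**
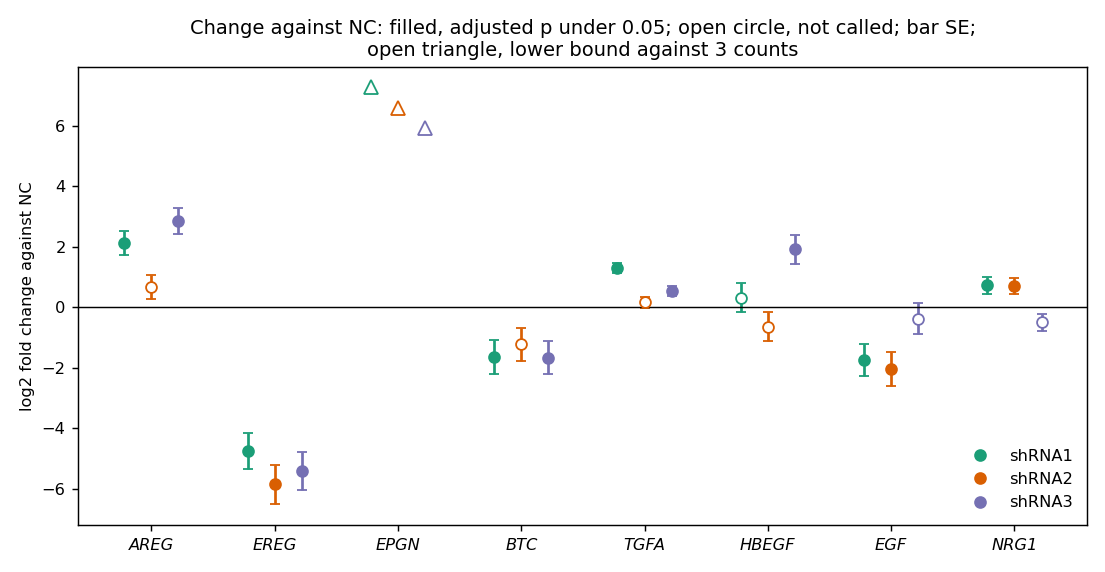
Log2 fold change of each ligand against NC for the 3 hairpins; filled circles passed the edgeR test at an adjusted p under 0.05, open circles did not, bars are the SE, and open triangles are the lower bounds for EPGN. With all 12 libraries kept, as drawn, EREG and EPGN are the genes that lie on the same side of 0 beyond the threshold for all 3 hairpins.

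Counted over the family, 4 of the 8 ligands rose with shRNA1 (TGFA, AREG, EPGN and NRG1) and 3 fell (EGF, BTC and EREG), where 26.8% of all tested genes rose and 30.6% fell. With shRNA2, 2 rose (EPGN and NRG1) and 2 fell (EGF and EREG), against 24.6% and 28.4% of all genes. With shRNA3, 4 rose (TGFA, AREG, HBEGF and EPGN) and 2 fell (BTC and EREG), against 26.4% and 27.6%. Without shRNA3 libraries 1 and 2, the number of ligands that passed was 7 with shRNA1, 6 with shRNA2 and 4 with shRNA3, where 71.3%, 68.1% and 56.9% of all genes tested there passed. With all 12 libraries kept, EPGN alone rose and EREG alone fell with all 3 hairpins, against 16.0% and 19.7% of all genes. Which ligands passed with all 3 hairpins depended on shRNA3 libraries 1 and 2. Without them the log2 changes with shRNA1, shRNA2 and shRNA3 were 2.14, 0.69 and 1.19 for AREG. For EGF they were -1.74, -2.03 and -1.69. Against the mean of the 3 hairpins 6 ligands changed, all but HBEGF and NRG1, where 60.0% of all genes did. Since more than 1 in 2 of all tested genes changed with each hairpin, these shares do not set the family apart. The 3 comparisons share the NC libraries. The median log2 change of the 8 ligands was 0.51, -0.24 and 0.08 for shRNA1, shRNA2 and shRNA3, also with EPGN at its bound, beside -0.02, -0.05 and -0.03 for all tested genes. All 8 genes passed the filter, but not all from the same groups. TGFA, AREG, HBEGF and NRG1 reached its level in all 4 groups, EGF in NC and shRNA3, BTC and EREG in NC alone, and EPGN in the 3 shRNA groups alone, so that the last 3 had to differ to be tested at all.

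Levels can be compared between ligands only per length of transcript. Per kilobase of annotated exon, NC cells held AREG at 19.8 ± 0.821 CPM (SD), TGFA at 13.1 ± 0.658, HBEGF at 8.52 ± 0.955, NRG1 at 3.08 ± 0.434 and EREG at 1.98 ± 0.449. BTC at 0.302 and EGF at 0.295 CPM per kilobase overlapped, and EPGN was at 0. EPGN, absent from the NC counts, moved to the third place with shRNA1 (12.7 ± 2.49, overlapping HBEGF at 10.6 ± 1.6) and with shRNA2 (7.93 ± 0.697, above HBEGF at 5.48 ± 0.661). EREG moved from the fifth place to the last in all shRNA groups, where its range overlapped that of the next gene up. AREG stayed highest in every group, at 86.4 ± 4.2 with shRNA1, 31.7 ± 1.88 with shRNA2 and 143 ± 86.0 with shRNA3, followed by TGFA with shRNA1 (32.1 ± 4.12) and shRNA2 (14.7 ± 0.779). In shRNA3 HBEGF came next (32.1 ± 21.5), before TGFA (19.1 ± 4.31), and the ranges of neighbours overlapped for AREG, HBEGF and TGFA because library 3 was low in the first 2 of them. HBEGF and NRG1 overlapped in shRNA2 (5.48 and 5.03), and EGF, BTC and EREG lay at or below 0.23 CPM per kilobase in all shRNA groups.

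Summed over the 7 ligands that bind EGFR, the level per kilobase was 44.7, 44.7 and 42.9 CPM in NC. It was 143, 139 and 144 with shRNA1, 60.3, 63.8 and 56.0 with shRNA2, and 265, 259 and 75.7 with shRNA3. Every shRNA library was above NC, and AREG was the largest share in all 12. The share of AREG was 44.1 to 45.8% in NC, 58.6 to 63.4% with shRNA1 and 52.4 to 53.0% with shRNA2. With shRNA3 it was 74.1 and 73.1% in libraries 1 and 2 and 58.5% in library 3. The share of TGFA went from 28.1 to 31.0% in NC to 19.3 to 25.2% with shRNA1, and that of EREG from 3.3 to 5.47% in NC to at most 0.126% in any shRNA library. EPGN made up 7.6 to 10.8% with shRNA1, 12.6 to 13.7% with shRNA2, and 0.847, 1.21 and 12.8% in the shRNA3 libraries. These are sums of mRNA levels, and protein was not measured.

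**Figure D4:**
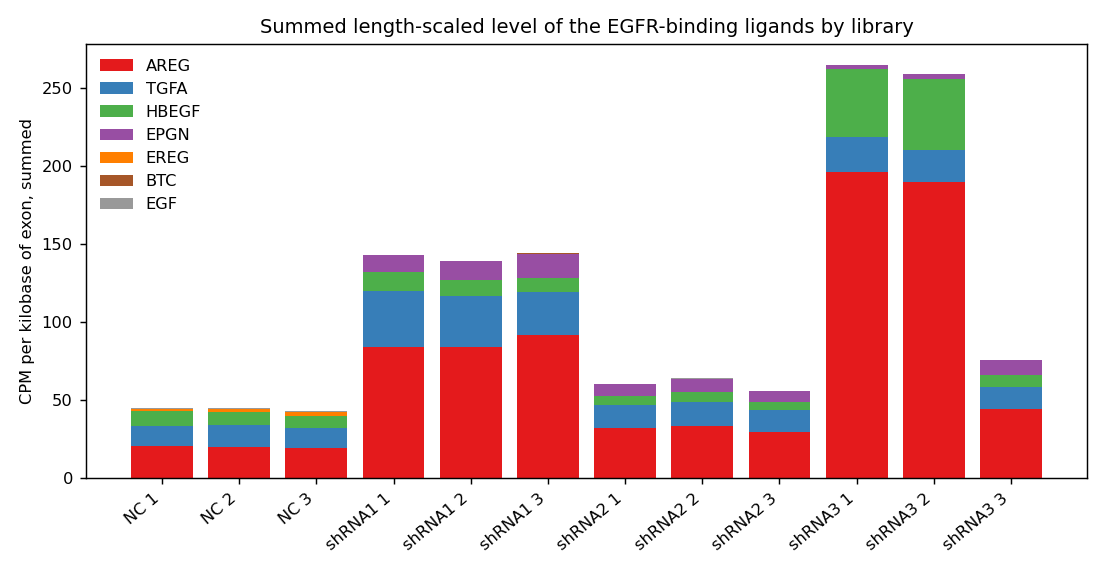
Summed level of the 7 EGFR-binding ligands in CPM per kilobase of exon, 1 bar a library from 0, divided by ligand. The bars of NC end at 42.9 to 44.7 and those of shRNA1 at 139 to 144; in shRNA3 the first 2 libraries reach 265 and 259 and library 3 reaches 75.7, with AREG the largest share in every bar.

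The hairpins were then compared with each other. Between shRNA1 and shRNA2, 2 of the 8 ligands differed, where 12.3% of all tested genes did. TGFA was higher with shRNA1 (log2 1.13, SE 0.17, edgeR adjusted p = 0.00343), and so was AREG (log2 1.45, SE 0.4, edgeR adjusted p = 0.0385). For both genes every shRNA1 library lay above every shRNA2 library. The AREG call ended when any NC, shRNA1 or shRNA2 library was left out (log2 1.39 to 1.48, edgeR adjusted p from 0.0606 to 0.137). Between shRNA1 and shRNA3, 3 ligands differed, against 30.0% of all genes. TGFA was higher with shRNA1 (log2 0.75, edgeR adjusted p = 0.0111), as was NRG1 (log2 1.22, edgeR adjusted p = 0.0112), and HBEGF was lower (log2 -1.6, edgeR adjusted p = 0.0325). The HBEGF call ended without NC library 2, any shRNA1 library or shRNA3 library 1 or 2 (edgeR adjusted p from 0.0507 to 0.113), and that of NRG1 without shRNA3 library 1 (0.0509). In the 6 libraries of shRNA1 and shRNA3 alone NRG1 differed by the same 1.22 with an edgeR adjusted p of 0.125, in a fit where 0 of 15326 genes passed (4295 at an unadjusted p under 0.05). Between shRNA2 and shRNA3, 3 ligands differed, against 8.34% of all genes: AREG (log2 -2.18, edgeR adjusted p = 0.0267) and HBEGF (log2 -2.55, edgeR adjusted p = 0.0274) were lower with shRNA2, and NRG1 was higher (log2 1.21, edgeR adjusted p = 0.0341). All 3 of these last calls ended when any NC or shRNA2 library, or library 1 or 2 of shRNA3, was left out (0 ligands by edgeR, 4 at an unadjusted p under 0.05). In those fits the number of all genes that passed fell too, to between 0 and 44 (3406 to 5169 at an unadjusted p under 0.05), while over all fits with 1 library left out the log2 differences lay between -2.59 and -1.92 for AREG, between -3.01 and -2.25 for HBEGF and between 1.03 and 1.48 for NRG1. For BTC, EREG, EPGN and EGF no pair of hairpins passed the test with all libraries. Some passed otherwise. EPGN between shRNA1 and shRNA3 (edgeR adjusted p = 0.0604) had an adjusted p of 0.0395 with a replicate block in edgeR and of 0.022 by the DESeq2 Wald test. Between shRNA1 and shRNA2 EPGN had an edgeR adjusted p of 0.0135 in the 6 libraries alone, and EGF between shRNA2 and shRNA3 had 0.0339 by the Wald test. Without shRNA3 library 3, EGF, EREG and EPGN passed between shRNA1 and shRNA3 (edgeR adjusted p = 0.00351, 0.0139 and 1.73e-06), where 63.4% of all genes did. In that fit EGF and EPGN also passed between shRNA2 and shRNA3 (edgeR adjusted p = 0.00173 and 5.43e-05), where 59.2% did, and EPGN between shRNA1 and shRNA2 (0.00825), where 39.7% did. With all libraries the intervals of these genes were wide: between shRNA1 and shRNA2 the log2 difference lay between -0.97 and 1.54 for EGF and between -0.4 and 2.63 for EREG.

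Much of the contrast with shRNA3 came with its libraries 1 and 2. Without them, the HBEGF difference between shRNA1 and shRNA3 was 0.54 on the log2 scale (edgeR adjusted p = 0.13) and that of AREG, -0.73 with all libraries (edgeR adjusted p = 0.169), was 0.95 (edgeR adjusted p = 0.0014), both the other way round. NRG1 differed from shRNA3 by 0.8 for shRNA1 and by 0.8 for shRNA2 (edgeR adjusted p = 0.173 and 0.261), and between shRNA2 and shRNA3 AREG differed by -0.49 and HBEGF by -0.41 (edgeR adjusted p = 0.0638 and 0.327). The TGFA difference between shRNA1 and shRNA3 was 1.16 (edgeR adjusted p = 0.0013). In this fit 8.1% of all genes passed between shRNA1 and shRNA3 and 1.28% between shRNA2 and shRNA3. These 2 libraries had TMM factors of 0.771 and 0.795, where those of the other 10 were between 0.979 and 1.11. Their part in the ligand results beyond the values given was not tested.

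The other neuregulins bind ERBB3 or ERBB4. NRG4, a ligand of ERBB4, rose with all 3 hairpins, from 0.558 to 0.739 CPM in NC to 5.83 to 7.85 CPM with shRNA1, 9.75 to 12.1 CPM with shRNA2 and 3.49 to 6.75 CPM with shRNA3 (log2 3.27, 4.01 and 2.83, edgeR adjusted p = 7.67e-06, 2.14e-06 and 2.25e-05). NRG4 overlaps FBXO22 on the opposite strand, so reads of the 2 genes may not be told apart. NRG2 rose with shRNA2 and shRNA3 (log2 0.97 and 1.03, edgeR adjusted p = 0.0193 and 0.0136), with a log2 difference of -0.2 for shRNA1. NRG3 had 0 counts in all libraries.

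The receptor genes were lower in the shRNA groups. All 3 tested receptor genes fell with all 3 hairpins, where 19.7% of all tested genes did. EGFR, which most of the 8 ligands bind, was at 1270 to 1370 CPM in NC and at 109 to 338 CPM in the shRNA libraries (log2 -2.07, -2.46 and -2.98, edgeR adjusted p = 5.26e-05, 1.69e-05 and 5.44e-06). ERBB3, the partner of NRG1, was at 46.5 to 62.1 CPM in NC and 1.03 to 4.27 CPM in the shRNA libraries (log2 -4.46, -3.87 and -3.83, edgeR adjusted p = 5.13e-06, 1.17e-05 and 1.34e-05). ERBB2, which binds no ligand and pairs with the others, fell by 0.88, 0.5 and 0.68. ERBB4 had at most 4 counts in a library and was not tested, so that a direct receptor of HBEGF, BTC, EREG and NRG4 was barely detected at this depth. All 4 receptor genes overlap other annotated genes.

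Genes that release or route the ligand precursors moved in both directions. Of 16 looked up, 15 were tested. With all libraries kept, 3 rose and 3 fell with all 3 hairpins, close to the 16.0% and 19.7% of all tested genes. The median log2 change of the 15 was -0.44, -0.7 and -0.22 with shRNA1, shRNA2 and shRNA3. The last was -0.61 without shRNA3 libraries 1 and 2, and which of the 15 passed with all 3 hairpins depended on these libraries too. RHBDF2, the iRhom protein that carries ADAM17 to the cell surface, fell (log2 -2.5, -2.45 and -3.11, edgeR adjusted p = 0.000441, 0.000526 and 0.000129). RHBDL2, a rhomboid protease that can cut EGF, had 8.12 to 9.69 CPM in NC and at most 1 count in any shRNA library, at least 60.5-fold lower with shRNA1, 53.2-fold with shRNA2 and 46.0-fold with shRNA3, and passed the filter through NC alone. BACE1, a protease known to cut the precursor of NRG1, fell by 1.59, 0.7 and 1.19. TIMP3, an inhibitor of ADAM17, rose (log2 1.52, 2.39 and 2.61), as did NKD2 (3.88, 3.86 and 4.06), which escorts the TGFA precursor to the membrane, and ADAM12 (1.87, 2.41 and 0.97), a protease that can cut HBEGF. ADAM17 and ADAM10, named here after their values were seen because they are the main sheddases, changed less. ADAM17 fell with shRNA3 (log2 -0.76, edgeR adjusted p = 0.0088; -0.27 and 0.177 without shRNA3 libraries 1 and 2), with differences of -0.11 and -0.37 for shRNA1 and shRNA2. ADAM10 fell with shRNA1 and shRNA2 (log2 -0.78 and -0.48), with a difference of -0.12 for shRNA3 that was -0.66 without those libraries (edgeR adjusted p = 0.0006).

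Among 4 cell-surface partners of heparin-binding ligands, SDC1 (syndecan 1) rose by 1.58, 1.39 and 2.0 on the log2 scale, and CD44 (-0.79, -0.97 and -0.58) and GPC1 (glypican 1; -1.08, -0.8 and -0.88) fell with all 3 hairpins. Of all tested genes 16.0% rose and 19.7% fell so. CD9, a partner of the HBEGF precursor, fell with shRNA1 and did not pass with the others. With shRNA3 its log2 difference was 0.62, and -0.82 without libraries 1 and 2 (edgeR adjusted p = 0.161 and 7.16e-05). Of 13 inhibitors of the receptors and their signal, 3 rose with all 3 hairpins when all libraries were kept. These were Sprouty genes: SPRY1 (log2 1.65, 2.02 and 2.68), SPRY2 (2.25, 1.27 and 1.63) and SPRY4 (2.28, 1.15 and 2.5). CBLB, a ubiquitin ligase that acts on active EGFR, fell (-1.19, -1.43 and -0.54). These counts of 3 and 1 of 13 stand beside 16.0% and 19.7% of all tested genes, as do the counts of 3 and 1 of 12 that follow. Of 12 genes known to be induced by ERK, DUSP4 (2.25, 1.56 and 2.16), ETV4 (1.03, 1.62 and 2.15) and PHLDA1 (2.31, 1.77 and 3.29) rose with all 3 hairpins, and EGR1 fell (-3.4, -3.27 and -4.16). The median log2 change of these 12 genes was 0.85, 0.24 and 1.58, in the order shRNA1, shRNA2 and shRNA3, and that of the 13 inhibitors, which share DUSP6 with them, was 0.83, 0.39 and 0.52, beside -0.02, -0.05 and -0.03 for all tested genes. Without shRNA3 libraries 1 and 2 the shRNA3 medians were 0.52 and 0.23. Which of the 13 inhibitors passed with all 3 hairpins depended on these libraries as well. Without them the shRNA3 log2 change of LRIG3 was 1.93 in place of 0.69, and that of PTPN1 was -0.66 in place of 0.29. Among the ligands, with all libraries kept, the smallest of the 3 changes was with shRNA2 for AREG, TGFA and BTC. It was with shRNA1 for HBEGF and EREG, and with shRNA3 for EGF, EPGN and NRG1. No test was made of the medians or of a link between these lists and the ligands.

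Finally, for each ligand the 2 genes with the most similar pattern over the 12 libraries were looked up by Pearson correlation of log2(CPM + 1) among 13876 genes. The values are a description, since the libraries share 4 groups and a change between NC and the rest alone gives a high value. AREG was most like ANKLE2 (0.994), a protein of the nuclear envelope, and ERRFI1 (0.992), a feedback inhibitor of EGFR with means of 51.4 CPM in NC and of 121, 68.8 and 168 CPM in the shRNA groups. Within the 9 shRNA libraries these were 0.99 and 0.989. HBEGF was most like PPP1R15A (0.992), a gene of the cellular stress response with means of 84.1 CPM in NC and 102, 43.4 and 519 CPM in the shRNA groups, and LIF (0.99), a cytokine. TGFA was most like MLX (0.982) and SPSB1 (0.981), and EGF like TMEM167B (0.983) and MB (0.973), the gene of myoglobin. EPGN went with EIF1AX and ODC1, the rate-limiting enzyme of polyamine synthesis (0.996 each), but 355 genes exceeded 0.95 for it. For EREG, N4BP2L1 and TLR5 (0.995 each) were the nearest of 784 genes over 0.95, and within the 9 shRNA libraries their values were 0.634 and 0.687. BTC was most like ENTPD5 (0.953) and DYNC1I1 (0.951), and NRG1 like SETBP1 (0.951) and IFIT2 (0.948). By Spearman correlation only 2 of these 16 genes were again among the nearest 2 of their ligand.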

How the data were processed

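Total RNA of 12 SCC-15 libraries was sequenced on an Illumina instrument after preparation with an NEBNext kit, per the labels' protocols. The authors deposited 1 table of estimated counts per gene, unscaled, made from reads by steps that no label spells out, in which 13.8% of values are not whole numbers. The submitters' processing notes name HISAT2, HTSeq 0.11.2 and GRCh38 with no roles; which annotation was counted, and whether by strand, is not given in the sources used here. The 12 columns matched 12 sample titles (columns not matched: 0).

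Counts were rounded and scaled by TMM, and edgeR's filterByExpr (minimum count 10, minimum total 15) kept 17532 of 61044 genes. The filter corresponds to 0.556 CPM in a library of median size. A single model of the 4 groups over 12 libraries went into a two-sided, robust quasi-likelihood F test in edgeR 4.0.16 under R 4.3.3 (common coefficient of biological variation 0.289, residual degrees of freedom 8), with Benjamini-Hochberg adjustment over all tested genes and a threshold of 0.05. The design had assumed plain counts; estimated counts needed only rounding. An SE is the log2 fold change divided by the square root of F, and intervals are at 95%. A fold against a group at or under 3 counts per library is a lower bound against that floor. The floor is a chosen value, and the exact 95% upper limit for 0 counts lies above it. Exact intervals and floors hold counting error alone: without molecular identifiers, reads are no independent molecules. The script was tested on simulated counts. Gene positions and exon lengths came from GENCODE release 29, and promoters from RefSeq (GRCh38.p14).

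The ligands and all gene lists were chosen with earlier results of these data known. The genes named were the 8 ligands, list members that passed in 1 direction with all 3 hairpins (at most 6 a list), all receptors, and the 2 genes most like each ligand. Libraries were grouped by title. Alternatives were DESeq2 size factors, no filter, the DESeq2 Wald test (DESeq2 1.42.0), a replicate block, only the 6 libraries compared, each library left out in turn, shRNA3 libraries 1 and 2 left out together, an adjusted p under 0.01, Spearman correlation and the longest transcript as length. Library totals without TMM factors were added after seeing the data.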

Additional observations from a re-analysis of the deposited data

Results flagged for a closer look

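These 8 differences between hairpins passed edgeR's test of the difference itself. Of all tested genes, 12.3% passed between shRNA1 and shRNA2, 30.0% between shRNA1 and shRNA3 and 8.34% between shRNA2 and shRNA3. All calls but those of TGFA ended when some single library was left out, as given above. That of AREG between shRNA1 and shRNA2 ended without any NC, shRNA1 or shRNA2 library. TGFA was higher with shRNA1 than with shRNA2 (log2 1.13) and than with shRNA3 (0.75). AREG was higher with shRNA1 than with shRNA2 (log2 1.45), and lower with shRNA2 than with shRNA3 (-2.18). HBEGF was lower with shRNA1 than with shRNA3 (log2 -1.6) and lower with shRNA2 than with shRNA3 (-2.55). NRG1 was higher with shRNA1 than with shRNA3 (log2 1.22) and higher with shRNA2 than with shRNA3 (1.21). The values of HBEGF and AREG against shRNA3 move with libraries 1 and 2 of that group, at 133 and 136 CPM against 21.8 CPM in library 3 for HBEGF and at 324 and 312 CPM against 73.0 CPM for AREG. Without libraries 1 and 2, NRG1 differed from shRNA3 by 0.8 for shRNA1 and for shRNA2, and did not pass the edgeR test (adjusted p = 0.173 and 0.261). What sets these libraries apart was not tested.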

How the results depend on the processing

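The calls of EREG and EPGN against NC held with each hairpin in every alternative run. This is no separate support, since the runs reuse the same libraries. EREG also passed the filter through NC alone and EPGN through the shRNA groups alone, so both had to differ to be tested. The number of ligands called with shRNA1 against NC, 7, was 4 at an adjusted p under 0.01. The share of all genes at that stricter threshold is not given here. The number with shRNA2, 4, was 8 in a fit of the 6 libraries compared, where 79.2% of all genes passed. Between shRNA1 and shRNA2 the count was 2, where 12.3% of all genes passed. It was 1 without the filter (4.25% of all genes), 1 with a replicate block (8.54%) and 4 with the 6 libraries alone (41%). At an adjusted p under 0.01 it was 1, and with 1 library left out 1 to 4 (4 without shRNA3 library 3, where 39.7% of all genes passed). Between shRNA1 and shRNA3 the count by edgeR was 3, where 30% of all genes passed. It was 0 with the 6 libraries alone, as for all genes (4 ligands at an unadjusted p under 0.05), and 0 at an adjusted p under 0.01 (5 unadjusted). By the DESeq2 Wald test it was 4 (38.5% of all genes) and with a replicate block 4 (25.4%), with EPGN added in both. With 1 library left out it was 1 to 7 (1 without shRNA3 library 1, where 10.3% of all genes passed, and 7 without library 3, where 63.4% did). Between shRNA2 and shRNA3 the count by edgeR was 3, where 8.34% of all genes passed. It was 0 with the 6 libraries alone, as for all genes (4 ligands unadjusted), and 0 at an adjusted p under 0.01 (5 unadjusted). By the DESeq2 Wald test it was 4 (EGF added), where 21.6% of all genes passed. With 1 library left out it was 0 to 6. It was 0 (4 unadjusted) without any 1 of the NC or shRNA2 libraries or shRNA3 library 1 or 2, where at most 0.243% of all genes passed. It was 1 without shRNA1 library 2 (0.938% of all genes) and 6 without shRNA3 library 3 (59.2% of all genes). Without shRNA3 libraries 1 and 2, 9 differences of ligands changed sign. Of these, 6 passed in neither fit, and 3 passed in 1 of them: AREG between shRNA1 and shRNA3 to 0.95, HBEGF with shRNA3 against NC to -0.21 and HBEGF between shRNA1 and shRNA3 to 0.54. The single library left in shRNA3 is there assumed to vary like the other groups. Beyond the fewer libraries in these fits, the cause was not tested.

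Scaling by library totals moved the median log2 change of all genes from -0.017 to -0.102 with shRNA1, from -0.049 to -0.184 with shRNA2 and from -0.027 to -0.348 with shRNA3. Same-numbered libraries did not move together around their group means (mean correlation of their deviations -0.00434 over 18 pairs, against 0.00186 over 36 pairs of different numbers, and 3 of 12 libraries were closest to their own number), so the numbers do not pair them. With the replicate block, NRG1 with shRNA1 was 0.65 (edgeR adjusted p = 0.0606). Of the 16 genes most like a ligand, 2 were kept by Spearman correlation. With the longest transcript as length, 26 of the 32 places of ligands in the order of levels were kept. The mean of the 3 hairpins has no fit with 6 libraries. Depth limits EGF and BTC, whose highest counts were 43 and 21.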
